A study of Mus musculus with 9 samples.

Results

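The genes described here encode the insulin receptor and the PI3K, AKT and mTOR pathway below it, in the liver of KKAy mice, which are obese and serve as a model of type 2 diabetes. They were defined as a list of 34 pathway genes and not by their values on the arrays, though the list was chosen with earlier results of these data known. A gene was taken as measured where a probe set was annotated to that gene alone, which gave 32 genes on 87 probe sets, among 18193 genes in all and 45037 probe sets tested. Rps6kb1, a kinase of ribosomal protein S6, and Mapk3, a MAP kinase at the end of the RAS branch, were not analysed here. Each gene is represented by its probe set of highest mean over the 9 arrays, called the brightest, and its other probe sets are set beside it further on.

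The data are 9 one-colour Affymetrix arrays of liver RNA, 3 in each of 3 groups, all labelled as 8 weeks of age. The first group, labelled KKAy with treatment none, is called untreated. The second, labelled Insulin, belongs to a protocol in which mice received 100 µL of the culture medium DMEM with insulin at 40 µg/mL into the peritoneum. The third, labelled BI for biomineralized insulin, had the same total insulin concentration, of which 11% was in the BI form, so that most of its insulin was plain insulin. The protocol also describes control mice injected with DMEM, and the labels do not say whether the untreated arrays come from them. Each group of the protocol had 8 to 12 mice. Whether an array came from 1 animal or from a pool is not stated, so the p-values reflect the spread between arrays alone, which may be technical. The time from injection to collection of the liver is not given in the labels. The growth text of BI replicate 2 describes rats, where that of the other 8 arrays describes mice on a chow with 34% fat. That array was kept in its labelled group, and without it 6 of the 32 differences from untreated changed sign, each at most 0.051 (log2) in size with all arrays. The largest move without it was that of Trib3 against untreated, from 0.40 to 0.83.

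Insulin binds the receptor encoded by Insr, which phosphorylates the adaptors IRS1 and IRS2. These recruit PI3-kinase, a dimer of a catalytic and a regulatory subunit, whose lipid product brings PDPK1 and AKT to the membrane. AKT then inactivates the GSK3 kinases, which restrain glycogen synthesis, drives FOXO factors out of the nucleus and, by inhibiting TSC2, releases mTOR. A further branch runs from SHC1, GRB2 and SOS1 to RAS and the MAP kinases. In liver the pathway lowers glucose output and raises lipid synthesis, and most of its fast control lies in phosphorylation, which expression arrays do not measure.

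Irs2 and Akt1 are shown by their start windows, Irs2 because it had the widest range over the 9 arrays and Akt1 because it had the smallest p in the comparisons with untreated arrays. The windows run from 250 bases before to 50 after the start in RefSeq and are written 5′ to 3′. That of Irs2 lies on the minus strand of GRCm38.p6 at chr8:11008880-11009179. Capitals mark an E-box (CACGTG) from 44 to 39 bases before the start and TGTTTTG, the reverse complement of a FOXO variant core (CAAAACA), from 37 to 31 bases before it. That of Akt1, which has 2 windows, lies on the minus strand at chr12:112674835-112675134. Capitals mark TGTTTAC, the reverse complement of the FOXO core GTAAACA, from 161 to 155 bases before the start.
Irs2: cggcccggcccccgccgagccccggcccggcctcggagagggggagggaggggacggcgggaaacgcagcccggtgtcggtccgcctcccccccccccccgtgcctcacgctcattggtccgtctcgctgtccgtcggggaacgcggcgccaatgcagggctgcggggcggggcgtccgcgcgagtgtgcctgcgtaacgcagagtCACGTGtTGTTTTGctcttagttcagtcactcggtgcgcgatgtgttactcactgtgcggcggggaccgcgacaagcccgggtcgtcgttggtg
Akt1: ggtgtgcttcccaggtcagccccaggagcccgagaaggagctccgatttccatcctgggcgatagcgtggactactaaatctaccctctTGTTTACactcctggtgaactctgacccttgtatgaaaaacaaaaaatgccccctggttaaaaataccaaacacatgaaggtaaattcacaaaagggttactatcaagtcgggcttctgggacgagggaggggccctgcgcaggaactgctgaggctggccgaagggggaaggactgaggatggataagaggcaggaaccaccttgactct
A match of letters describes the window and is no measured binding site.

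Start windows were matched for 30 of the 32 genes, which had 42 of them, and Insr and Eif4ebp1 were without one here. Both strands were searched. A GC box (GGGCGG) was in 26 of the 42 windows (61.9%), against 35.7% of all 32851 windows. The core GTAAACA was in 1 window, that of Akt1 (2.38%, against 3.65%), and CAAAACA in 3, of Irs1, Irs2 and Prkci (7.14%, against 6.28%). CACGTG was in 3, of Irs1, Irs2 and Rheb (7.14%, against 7.15%). TGACGTCA, an element bound by CREB, was in 1, of Prkcz (2.38%, against 1.79%), and TGATGCAA, a core bound by ATF4 with CHOP, in 0 (against 0.895%). Windows of 1 gene can share sequence, and the shares were not tested.

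The arrays carried liver RNA by their markers. The 9 measured hepatocyte markers averaged 14.30 to 14.62 on the log2 scale, while the T and NK cell, B cell, adipocyte, pancreas and skeletal muscle lists averaged at most 6.29 on any array. Array medians lay between 6.11 and 6.30, and arrays of 1 group correlated at 0.911 to 0.920, against 0.909 to 0.921 between groups. For Gapdh the signal of the 3' probe set exceeded that of the 5' one, a measure of RNA integrity, by 0.28, 0.31 and 0.65 (log2) on the untreated arrays. The excess ranged from 0.48 to 0.55 with insulin and from 0.26 to 0.42 with BI. So for Gapdh the insulin arrays all lay above the BI arrays, while the untreated arrays overlapped both. For Actb it was 1.80 to 2.11 untreated, 2.00 to 2.23 with insulin and 1.96 to 2.09 with BI, and all groups overlapped. The part of RNA integrity in differences between BI and insulin was not tested.

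No gene of the pathway passed the test in any comparison. The test was limma's moderated test on log2 signal, with Benjamini-Hochberg adjustment over 45037 probe sets and a threshold of 0.05. For insulin against untreated it called 0 of the 32 genes, where it called 0% of all probe sets (smallest adjusted p over the 32 genes 0.9999). For BI against untreated it called 0 of 32, against 0.0111% of probe sets (smallest adjusted p 0.9991). In BI against insulin the count was 0 of 32, against 0% of probe sets (smallest adjusted p 0.9999), and the moderated F test over the 3 groups called 0 of 32, against 0% of probe sets. At an unadjusted p under 0.05, which marks no call, limma gave 1 of 32 with insulin, 1 of 32 with BI (Akt1 in both) and 0 of 32 between BI and insulin. That line was crossed by 3.87%, 3.9% and 3.44% of all genes in these comparisons. By the F test it was crossed by 0 of 32 pathway genes and by 3.81% of all genes. In bulk liver, less RNA per cell and fewer cells of a type cannot be told apart.

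The pathway lay on both sides of no difference. With insulin 16 genes were above and 16 below the untreated mean, with a median difference of 0.0080 (log2), against 0.023 over all 18193 genes. With BI 15 were above and 17 below (median -0.019, against 0.00038 over all genes). Between BI and insulin 14 were higher and 18 lower with BI (median -0.063, against -0.026 over all genes). The median size of a difference, whatever its sign, was 0.10, 0.11 and 0.13 over the 32 genes and 0.21, 0.21 and 0.20 over all genes. The 32 genes were also bright, with a median of 9.68 to 9.92 on an array by their brightest probe sets. Over all probe sets it was 6.11 to 6.30, a set that includes the dimmer probe sets of each gene, so the gap in level is not like for like. The part of signal level in the smaller differences was not tested. The 3 untreated arrays enter both comparisons with untreated, whose values are therefore not separate evidence.

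How closely the arrays bound each gene is given by the 95% interval of its difference. With insulin it lay within a 2-fold change in either direction (log2 -1 to 1) for 27 of 32 genes, all but Irs2, Pik3r2, Akt1, Ptpn1 and Trib3. With BI it did so for 25 of 32, Rptor and Grb10 joining these 5. For BI against insulin 28 of 32 did, all but Irs2, Rptor, Ptpn1 and Trib3. Over all genes the share was 51.2%, 51.3% and 51.3%, with the higher level of the 32 genes not taken into account. The median half-width over the 32 genes was 0.44 (log2), so intervals of genes near no difference typically reach to about that size on either side.

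**Figure D1:**
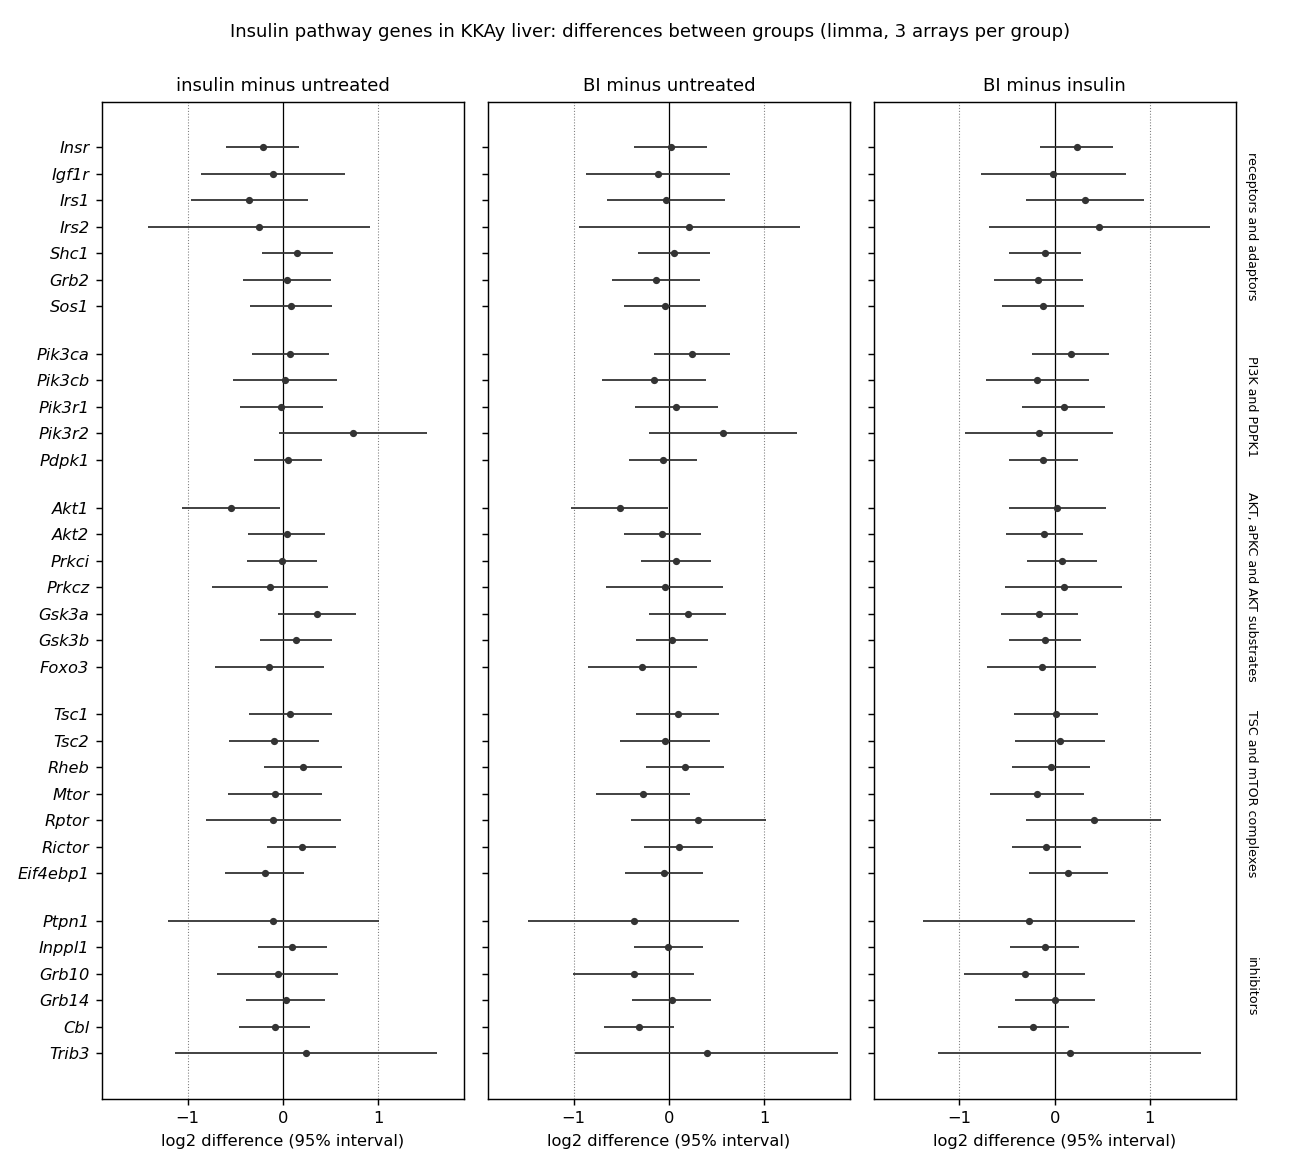
Difference in log2 signal between groups (horizontal axes) for the 32 measured genes, arranged by role, with points at the limma estimate and bars for its 95% interval (3 arrays per group). Dotted lines mark a 2-fold change. The interval reaches past them for 5 genes with insulin, 7 with BI and 4 between BI and insulin, and it leaves out 0 only for Akt1 against untreated arrays.

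By their brightest probe sets few genes had groups that did not overlap. The 3 insulin arrays lay outside the range of the untreated arrays for 4 of 32 genes, against 9.23% of all genes. Pik3r2, Gsk3a, Rictor and Shc1 lay above (5.74% of all genes) and 0 below (3.48%). The BI arrays did so for 2 of 32, against 9.36% of all genes, with 0 above (4.84%) and Akt1 and Cbl below (4.52%). BI and insulin arrays were apart for 2 of 32, against 9.88% of all genes, with Insr above (4.2%) and Cbl below (5.68%). These counts are near the background, and the genes are described below as values.

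Insr, the receptor itself, was at 11.77, 11.59 and 11.41 untreated, at 11.27, 11.42 and 11.46 with insulin and at 11.61, 11.70 and 11.52 with BI. The BI arrays were all above the insulin arrays, while both overlapped the untreated ones. The difference between BI and insulin was 0.23 ± 0.16 (log2, estimate ± SE, limma unadjusted p 0.202, adjusted p 0.9999), and insulin against untreated was -0.21 ± 0.16. The 2 dimmer Insr probe sets pointed the other way with insulin, at 0.26 and 0.27. Igf1r, the related receptor for IGF1, was at 7.24, 6.97 and 7.14 untreated, at 6.32, 7.57 and 7.15 with insulin and at 6.93, 7.28 and 6.80 with BI. Its insulin arrays alone spanned the range of all 9, and the differences were -0.10 ± 0.32 with insulin and -0.11 ± 0.32 with BI.

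IRS1 and IRS2 are the adaptors that the receptor phosphorylates in liver. Irs1 was at 10.55, 10.42 and 11.03 untreated, at 10.47, 10.29 and 10.19 with insulin and at 10.28, 10.56 and 11.08 with BI. All groups overlapped, and the largest difference was -0.35 ± 0.26 with insulin (95% interval -0.97 to 0.27). Irs2, whose transcript FOXO factors are known to raise when insulin is low, was at 6.12, 6.93 and 7.03 untreated, at 5.46, 6.44 and 7.41 with insulin and at 7.22, 6.90 and 6.60 with BI. The insulin group held both its lowest and its highest array, a span of 1.95 that was the widest of the 32 genes. Differences were -0.25 ± 0.50 with insulin (0.23 without insulin replicate 1), 0.21 ± 0.50 with BI and 0.47 ± 0.50 between BI and insulin. Irs1 and Irs2 were each measured by 1 probe set, and the variant FOXO core shown above was in both windows.

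Shc1, which links the receptor to GRB2, was at 9.05, 8.97 and 9.03 untreated, at 9.12, 9.26 and 9.13 with insulin and at 8.87, 9.26 and 9.08 with BI. The insulin arrays were above the untreated ones by a small amount, 0.15 ± 0.16 (limma unadjusted p 0.377, adjusted p 0.9999), and BI overlapped both. Grb2, the adaptor that carries SOS1, ranged from 9.68 to 10.22 and Sos1, the exchange factor that loads RAS, from 11.23 to 11.80 over the 9 arrays. By their brightest probe sets all groups overlapped for both. The values were 0.04 ± 0.20 and 0.08 ± 0.18 with insulin and -0.13 ± 0.20 and -0.04 ± 0.18 with BI. The other Grb2 probe set was at 8.77 to 8.83 untreated and 8.85 to 8.99 with BI (0.11 ± 0.17). Over the 7 receptor and adaptor genes 3 were higher and 4 lower in each comparison.

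Pik3r2, a regulatory subunit of PI3-kinase, had the highest value of the 32 genes against untreated arrays. It was at 6.91, 7.50 and 7.80 untreated, at 8.42, 7.98 and 8.01 with insulin and at 7.38, 8.27 and 8.26 with BI. The 3 insulin arrays were above the 3 untreated arrays, and 2 of 3 BI arrays were too. The difference was 0.74 ± 0.33 with insulin (95% interval -0.04 to 1.52, limma unadjusted p 0.061, adjusted p 0.9999), 0.57 ± 0.33 with BI (0.86 without BI replicate 1, 0.32 without untreated replicate 1) and -0.17 ± 0.33 between them. The insulin value was 0.49 without untreated replicate 1, the lowest array, and 0.93 without untreated replicate 3. Pik3r2 was measured by 1 probe set.

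By their brightest probe sets the other subunits overlapped in every comparison. Pik3r1, the main regulatory subunit in liver, ranged from 11.06 to 11.61, with -0.02 ± 0.19 with insulin and 0.08 ± 0.19 with BI. The catalytic subunit Pik3ca ranged from 9.70 to 10.25, with 0.08 ± 0.17 and 0.24 ± 0.17. A further Pik3ca probe set was at 9.01 to 9.16 untreated and 9.21 to 9.31 with BI, a difference of 0.15 ± 0.18. Another was at 8.92 to 8.97 untreated and 9.04 to 9.32 with BI, with 0.23 ± 0.16. A dim one, at 3.14 to 4.97 untreated, was at 5.38 to 5.89 with insulin, with 1.21 ± 0.75. The remaining Pik3ca probe sets overlapped. Pik3cb, a further catalytic subunit, ranged from 7.89 to 8.62, with 0.02 ± 0.23 and -0.16 ± 0.23. Pdpk1, the kinase that activates AKT, had the narrowest range of the 32 genes, 11.13 to 11.41, with 0.05 ± 0.15 and -0.06 ± 0.15. Of these 5 genes 4 were higher with insulin and 3 with BI than untreated.

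Akt1, a widely expressed AKT kinase, was at 9.02, 8.85 and 8.38 untreated, at 8.01, 8.47 and 8.14 with insulin and at 8.27, 8.26 and 8.17 with BI by its brightest probe set. The BI arrays all lay below the untreated ones, while insulin replicate 2 lay above untreated replicate 3. The difference was -0.55 ± 0.22 with insulin (fold 0.685, limma unadjusted p 0.0397, adjusted p 0.9999) and -0.52 ± 0.22 with BI (fold 0.699, unadjusted p 0.0484, adjusted p 0.9991), and BI against insulin was 0.03 ± 0.22. Without untreated replicate 1 the values were -0.41 and -0.38. Without untreated replicate 3, which had the highest excess of the untreated arrays for Gapdh and Actb (0.65 and 2.11), they were -0.73 and -0.70, and the part of RNA integrity in them was not tested.

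The other 3 Akt1 probe sets differed from the brightest in size or in direction. The second brightest was at 8.01, 7.64 and 8.12 untreated, at 7.77, 8.08 and 7.88 with insulin and at 7.68, 7.92 and 7.60 with BI. Its groups overlapped, with -0.01 ± 0.20 with insulin and -0.19 ± 0.20 with BI. The next gave -0.28 ± 0.31 and -0.17 ± 0.31. The dimmest ranged from 2.30 to 5.68 and gave -0.69 ± 1.01 and 0.56 ± 1.01, with opposite signs. With the mean of the 4 probe sets Akt1 was at -0.38 with insulin and at -0.08 with BI.

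**Figure D2:**
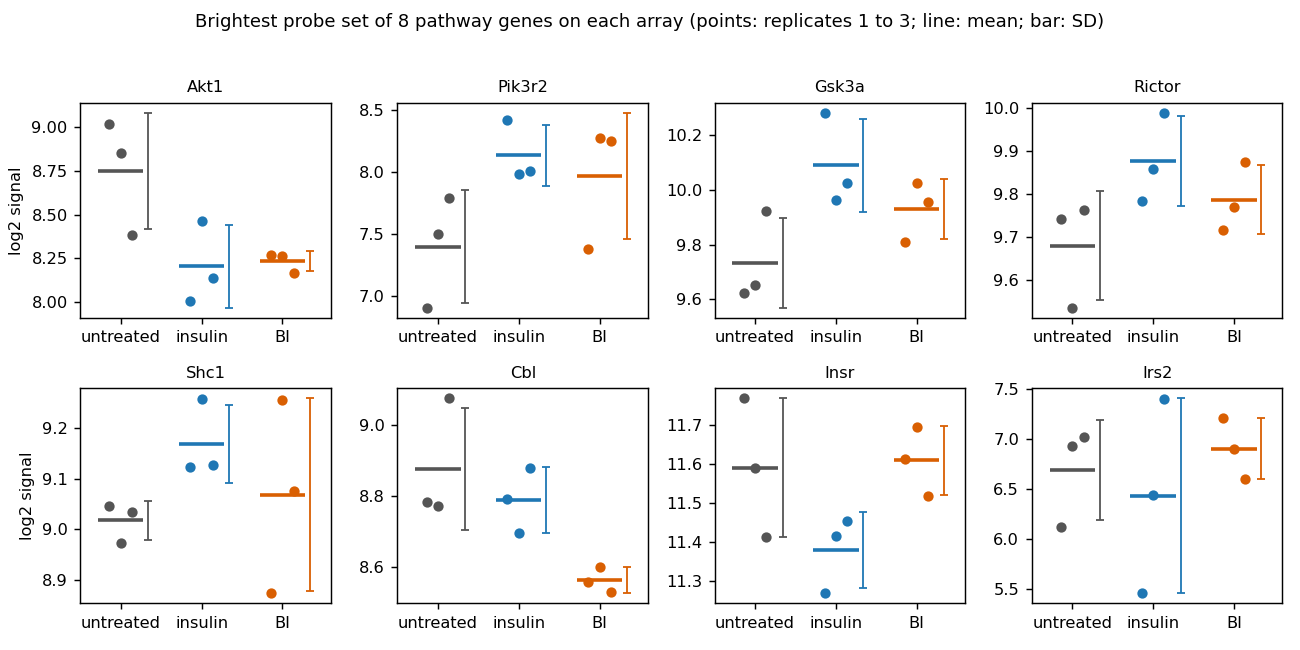
Log2 signal (vertical axes, which differ) on each array for the brightest probe set of 8 genes, by group; points are replicates 1 to 3 from left to right, lines group means and bars the SD. Akt1 on BI arrays (8.17 to 8.27) lies below the untreated arrays (8.38 to 9.02), Pik3r2 on insulin arrays (7.98 to 8.42) above them (6.91 to 7.80), and Irs2 spans 5.46 to 7.41 with insulin alone.

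Akt2, the AKT kinase best known for insulin action in liver, was at 9.90, 9.84 and 9.82 untreated, at 10.02, 9.86 and 9.80 with insulin and at 9.53, 9.97 and 9.85 with BI. The groups overlapped throughout, with 0.04 ± 0.17 with insulin (95% interval -0.37 to 0.44) and -0.07 ± 0.17 with BI (-0.47 to 0.34). Whether Akt1 and Akt2 differed in their change was not tested. The atypical protein kinases C, also activated through PDPK1, overlapped too. Prkci ranged from 10.42 to 10.72, with -0.01 ± 0.16 and 0.07 ± 0.16, and Prkcz from 7.22 to 8.16, with -0.14 ± 0.26 and -0.04 ± 0.26.

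Among the substrates of AKT, Gsk3a was at 9.62, 9.65 and 9.92 untreated, at 10.28, 9.96 and 10.03 with insulin and at 9.81, 10.03 and 9.96 with BI. The insulin arrays all lay above the untreated ones, the closest pair being 9.96 and 9.92, and BI overlapped both. The difference was 0.36 ± 0.17 with insulin (95% interval -0.05 to 0.76, limma unadjusted p 0.0773, adjusted p 0.9999) and 0.20 ± 0.17 with BI. Gsk3b, its paralog, overlapped in all groups by its brightest probe set, at 0.13 ± 0.16 and 0.03 ± 0.16. Another Gsk3b probe set was at 7.57 to 8.09 untreated and 7.21 to 7.47 with BI (-0.48 ± 0.21, limma unadjusted p 0.0556). A brighter one had BI above insulin (0.36 ± 0.25), and a dimmer one had insulin above untreated (0.27 ± 0.18). The remaining Gsk3b probe sets overlapped in every comparison. Foxo3, a FOXO factor kept out of the nucleus by AKT, ranged from 9.32 to 10.17, with -0.14 ± 0.25 and -0.28 ± 0.25.

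The TSC and mTOR genes showed no common direction, with 3 of 7 higher with insulin and 4 of 7 higher with BI. Tsc1 ranged from 9.04 to 9.53 and Tsc2 from 7.95 to 8.47. Together their proteins switch off the GTPase RHEB, and the values were 0.08 ± 0.19 and -0.10 ± 0.20 with insulin and 0.09 ± 0.19 and -0.04 ± 0.20 with BI. Rheb itself, the activator of mTOR, ranged from 12.62 to 13.05, with 0.21 ± 0.17 and 0.17 ± 0.17. Mtor, the kinase, was at 10.25, 10.51 and 10.86 untreated, at 10.36, 10.69 and 10.32 with insulin and at 10.19, 10.22 and 10.40 with BI. The groups overlapped, with -0.08 ± 0.21 and -0.27 ± 0.21. Eif4ebp1, a translation repressor that mTOR inactivates, ranged from 11.84 to 12.37, with -0.19 ± 0.18 and -0.05 ± 0.18.

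Rptor, which defines mTOR complex 1, was at 8.68, 8.45 and 8.70 untreated, at 9.15, 8.17 and 8.21 with insulin and at 8.58, 9.12 and 9.06 with BI. The insulin group held its highest and its lowest array, and BI against insulin was 0.41 ± 0.30 (limma unadjusted p 0.217, adjusted p 0.9999). Without insulin replicate 1 it was 0.73 (limma unadjusted p 0.0179, adjusted p 0.962). Rictor, which defines complex 2, a kinase of AKT, was at 9.74, 9.54 and 9.76 untreated, at 9.78, 9.86 and 9.99 with insulin and at 9.72, 9.77 and 9.87 with BI. Its insulin arrays were above the untreated ones by 0.20 ± 0.16 (limma unadjusted p 0.244, adjusted p 0.9999). With the mean of its 5 probe sets the value was -0.03, so the direction rests on which probe set stands for the gene.

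Cbl, an ubiquitin ligase that acts on receptor signalling, was at 8.78, 8.77 and 9.08 untreated, at 8.79, 8.70 and 8.88 with insulin and at 8.56, 8.60 and 8.53 with BI. All 3 BI arrays were below the 6 others, and untreated and insulin arrays overlapped. The difference was -0.31 ± 0.16 against untreated (95% interval -0.68 to 0.06, limma unadjusted p 0.0864, adjusted p 0.9991) and -0.23 ± 0.16 against insulin (unadjusted p 0.196, adjusted p 0.9999). Without untreated replicate 3 the first value was -0.21. The other Cbl probe sets gave 0.07 ± 0.21 and, for one that ranged from 1.61 to 6.37, 1.36 ± 1.14 against untreated. Their mean with the brightest was 0.37, the other direction.

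All measured markers of 2 other liver cell types had lower means with BI than with insulin, and none passed the test. Of the 10 Kupffer cell and macrophage markers, 10 had a lower mean with BI than with insulin, and their averaged log2 level was 8.80 to 9.24 with BI, 9.37 to 9.65 with insulin and 9.03 to 9.45 untreated. The 10 endothelial markers were likewise lower in 10 of 10 cases, with averages of 8.01 to 8.29, 8.18 to 8.82 and 7.86 to 8.71. In that comparison limma called 0 of 10 in either list. At an unadjusted p under 0.05 there were 1 and 0, against 3.44% of all genes, and no marker of either list was at 0 on an array. The endothelial averages of the groups overlapped. Also lower with BI than with insulin were 6 of 7 neutrophil (median -0.40), 4 of 5 cholangiocyte (-0.20), 5 of 7 B cell (-0.52) and 6 of 10 stellate cell markers (-0.11). So were 3 of 4 adipocyte (-0.24), 4 of 7 T and NK cell (-0.29) and 4 of 6 skeletal muscle markers (-0.059). The B cell and cholangiocyte lists held 5 and 3 markers below 6.04, the median of the mean levels of all probe sets. The adipocyte, T and NK cell and skeletal muscle lists held 3, 6 and 5. Higher were 5 of 9 hepatocyte, 2 of 3 erythroid and 4 of 5 pancreas markers, and 45.7% of all genes. Against untreated, 8 of 10 Kupffer cell markers were higher with insulin (median 0.27) and 7 of 10 lower with BI (median -0.14), and 7 of 10 endothelial markers were higher with insulin (median 0.26) and 8 of 10 lower with BI (median -0.24). Of 7 neutrophil markers 5 were lower with insulin and 5 with BI (medians -0.32 and -0.47), with averages of 6.50 to 8.15 untreated, 6.87 to 7.09 with insulin and 6.30 to 6.99 with BI. Of 3 erythroid markers 2 were lower with insulin and 3 with BI (medians -0.30 and -0.57). Higher with insulin than untreated were 4 of 4 adipocyte (median 0.53), 6 of 7 T and NK cell (0.35) and 4 of 6 skeletal muscle markers (0.27). With BI 3 of 4 adipocyte (0.096), 4 of 7 T and NK cell (0.46) and 4 of 5 pancreas markers (0.53) were higher. Lower were 4 of 5 pancreas markers with insulin (-0.10) and 3 of 6 skeletal muscle markers with BI (-0.083). limma called 0 of these against untreated too. The part of these cells in the values of Akt1, Pik3r2, Gsk3a, Cbl and Insr was not tested.

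Ptpn1 and Trib3 varied widely within groups. Ptpn1, the phosphatase that removes phosphate from the receptor, was at 10.35, 10.89 and 10.03 untreated, at 9.45, 10.28 and 11.23 with insulin and at 9.99, 10.50 and 9.66 with BI. The insulin arrays held both ends of its range, and the differences were -0.10 ± 0.47 with insulin and -0.37 ± 0.47 with BI. Trib3, a pseudokinase that binds AKT and is induced by stress and fasting, was at 8.50, 6.92 and 7.06 untreated, at 7.65, 8.46 and 7.09 with insulin and at 8.08, 7.03 and 8.57 with BI. Each group held both high and low arrays, with 0.24 ± 0.59 and 0.40 ± 0.59. The other inhibitors, apart from Cbl described above, overlapped in every comparison. Grb14, an adaptor-like inhibitor of the receptor, ranged from 11.69 to 12.06, with 0.03 ± 0.18 and 0.03 ± 0.18. Its relative Grb10 ranged from 7.35 to 8.39, with -0.05 ± 0.27 and -0.37 ± 0.27. Inppl1, the lipid phosphatase SHIP2, ranged from 9.72 to 10.02, with 0.10 ± 0.16 and -0.01 ± 0.16.

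Several probe sets, 2 to 6, exist for 24 of the 32 genes, and they often did not point the same way. Of the 55 further probe sets 22 lay below 6.04, the median of the mean levels of all probe sets, and no background measure tells which of them carried signal. Of the 33 at or above it, 14 had the sign of the brightest probe set with insulin, 22 with BI and 19 between BI and insulin. Among the 20 genes with such probe sets the signs all matched for 6 genes with insulin (Akt1, Pik3ca, Prkcz, Ptpn1, Shc1 and Tsc1), 11 with BI and 9 between them. limma called 0 of the 55 in each comparison. At an unadjusted p under 0.05 there were 2 with insulin, 4 with BI and 0 between BI and insulin, against 4.47%, 4.48% and 4.04% of all probe sets, and each lay below 6.04.

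Those dim probe sets, picked by their p, had larger differences than the brightest ones of the same genes, which the picking itself favours. For Igf1r it was at 3.50, 5.04 and 4.46 untreated and at 6.01, 5.25 and 6.39 with BI, a difference of 1.55 ± 0.47, where the brightest gave -0.11. For Rictor it was at 5.04, 5.57 and 5.24 untreated, at 5.77, 5.85 and 5.96 with insulin and at 5.75, 6.03 and 6.18 with BI, with 0.58 ± 0.20 and 0.71 ± 0.20. Here both treated groups lay above the untreated one, as the insulin group did for the brightest probe set. The remaining Rictor probe sets, from bright to dim, gave 0.08 ± 0.19, -0.68 ± 0.45 and -0.31 ± 1.30 with insulin. For Grb14 the dim probe set was at 5.95, 5.49 and 6.10 untreated and at 4.49, 5.62 and 4.08 with BI. Its difference was -1.12 ± 0.43, where the brightest gave 0.03. A dim Sos1 probe set was at 1.37, 4.24 and 3.99 untreated and at 5.66, 4.72 and 5.73 with insulin. Its difference was 2.17 ± 0.73, or 1.26 without untreated replicate 1, where the brightest gave 0.08. Another was at 5.92, 5.66 and 5.84 untreated and at 4.61, 5.51 and 5.14 with BI, a difference of -0.72 ± 0.26, where the brightest gave -0.04.

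**Figure D3:**
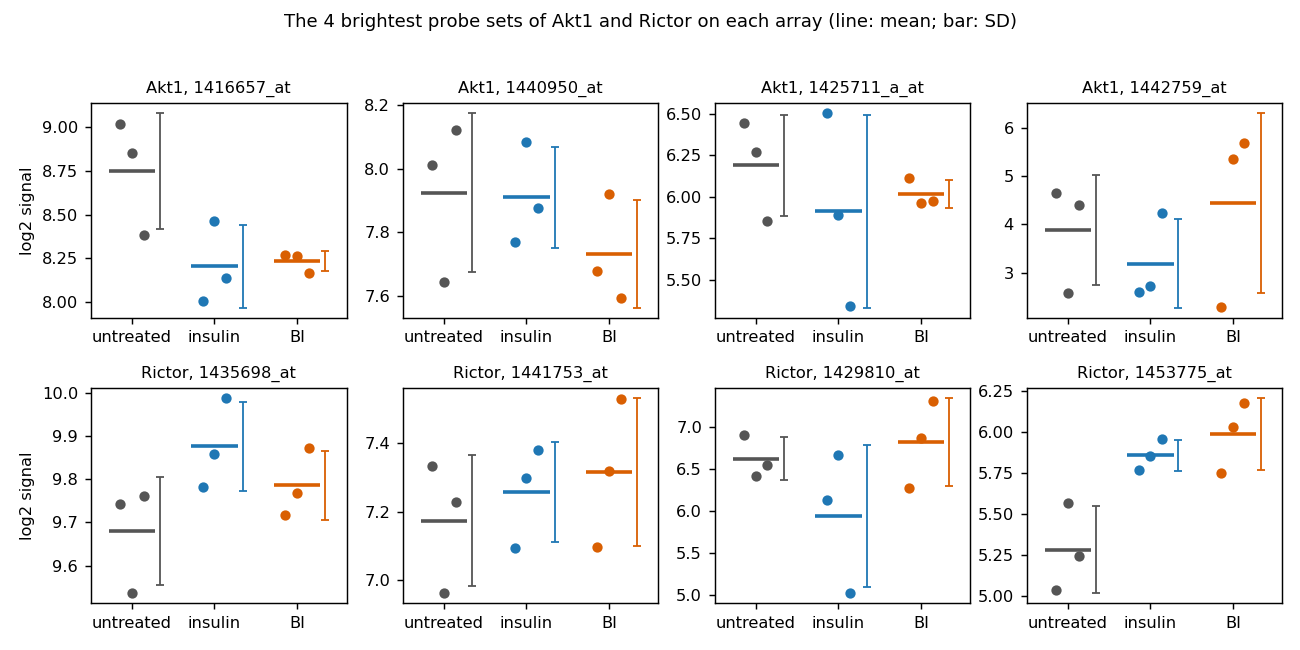
Log2 signal (vertical axes, which differ) on each array for the 4 brightest probe sets of Akt1 and Rictor, by group, with lines for means and bars for the SD. The untreated mean is highest for the brightest Akt1 probe set (8.75 against 8.20 and 8.23), while for the dimmest the BI mean is highest (4.44).

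Whether the spread between arrays was shared by the 2 brightest probe sets was asked for the 20 genes with 2 at or above 6.04. Over 9 arrays Pearson's r ranged from -0.40 (Sos1) to 0.79 (Trib3), with a median of 0.19 and 13 of 20 above 0. Trib3 had r = 0.79 (exact permutation p 0.00348, adjusted over 20 genes 0.0696) and Spearman's rho 0.83 (exact permutation p 0.00827, adjusted 0.138). Without the 2 arrays farthest from its median r was 0.72, and after removal of group means 0.85. So the high and low Trib3 arrays were largely the same by both probe sets. Rictor had r = 0.77 (exact permutation p 0.0153, adjusted 0.118), rho 0.67 (adjusted exact permutation p 0.266) and r 0.65 without 2 arrays. For Ptpn1 r was 0.76 (exact permutation p 0.0177, adjusted 0.118), rho 0.80 (adjusted exact permutation p 0.138) and r 0.94 without 2 arrays. None of the 20 passed after adjustment, and 5 had an unadjusted exact permutation p of r under 0.05. For Akt1 r was 0.22, but 0.67 without the 2 arrays farthest from its median, untreated replicates 1 and 2, and 0.038 after removal of group means. For Insr r was -0.0014, and 0.21 without 2 arrays. The probe sets share arrays and RNA, and some may share target sequence.

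**Figure D4:**
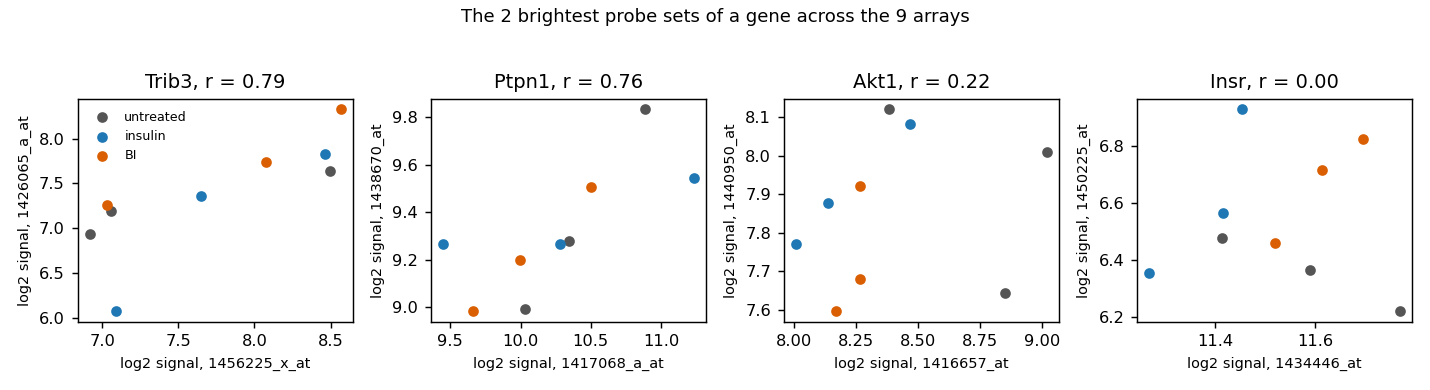
Log2 signal of the brightest probe set (horizontal axes) and the second brightest (vertical axes) of Trib3, Ptpn1, Akt1 and Insr, with 1 point per array coloured by group. Over all 9 arrays points of Trib3 and Ptpn1 rise together (r = 0.79 and 0.76), those of Akt1 and Insr less so or not (0.22 and -0.0014). For Akt1 r is 0.67 without untreated replicates 1 and 2, its arrays farthest from the median, and 0.038 after removal of group means.

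Further genes of the pathway were read from a list of 63, of which 55 were measured. These genes and the insulin-responsive ones below were read by their brightest probe set alone. limma called 0 of 55 higher and 0 of 55 lower in each comparison. At an unadjusted p under 0.05 there were 1, 2 and 0 of 55, against 3.87%, 3.9% and 3.44% of all genes, so the genes below are named by a rule of smallest p and not as calls. With insulin 31 were above and 24 below the untreated mean (median 0.015), with BI 29 and 26 (median 0.011), and between BI and insulin 21 and 34 (median -0.057). Sh2b1, an adaptor that enhances receptor signalling, had the smallest p against untreated. It was at 8.76, 8.70 and 8.71 untreated, at 9.14, 9.44 and 9.50 with insulin and at 9.62, 9.48 and 9.16 with BI. All 6 treated arrays lay above the untreated ones, by 0.64 ± 0.19 (limma unadjusted p 0.0101, adjusted p 0.9999) and 0.70 ± 0.19 (unadjusted p 0.0063, adjusted p 0.860). Of all genes 5.74% with insulin and 4.84% with BI lay wholly above untreated. Sh2b2, its relative, ranged from 2.06 to 6.34 and gave -1.86 ± 0.85 with insulin (-1.07 without insulin replicate 1) and -1.96 ± 0.85 with BI, whose arrays all lay below the untreated ones. Pik3r3, a further regulatory subunit of PI3-kinase, gave -0.70 ± 0.23 with BI and -0.39 ± 0.23 between BI and insulin. Tbc1d7, a subunit of the TSC complex, gave -0.38 ± 0.23 between BI and insulin.

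Transcripts known to follow insulin signalling in hepatocytes were listed too, and 11 of 12 were measured. limma called 0 of 11 in each comparison. Above and below the untreated mean were 6 and 5 with insulin (median 0.0075) and 5 and 6 with BI (median -0.086). Between BI and insulin 5 were higher and 6 lower with BI (median -0.00098). At an unadjusted p under 0.05 there were 1, 2 and 0 of 11, against the same 3.87%, 3.9% and 3.44% of all genes, and whether these counts exceed the background was not tested. Ppargc1a, a coactivator of glucose production that insulin restrains, was at 8.65, 8.70 and 8.80 untreated, at 7.97, 8.47 and 8.00 with insulin and at 8.12, 8.00 and 8.32 with BI. All 6 treated arrays lay below the untreated ones, by -0.57 ± 0.20 and -0.57 ± 0.20 (limma adjusted p 0.9999 and 0.9991). Of all genes 3.48% with insulin and 4.52% with BI lay wholly below untreated. Pck1, an enzyme of glucose production that insulin lowers, was at 14.34, 13.88 and 14.01 untreated, at 14.40, 14.24 and 14.30 with insulin and at 13.95, 14.02 and 13.75 with BI. Its BI arrays were below its insulin arrays, by -0.40 ± 0.18 (limma unadjusted p 0.0583, adjusted p 0.9999). Against untreated, Pck1 was at 0.24 with insulin and at -0.17 with BI. Srebf1, the lipogenic factor that insulin raises, gave 0.29 ± 0.16 with insulin. Pnpla3, a target of lipogenic factors, gave -1.30 ± 0.54 with BI, and Cited2, a transcriptional coregulator, 0.45 ± 0.27 between BI and insulin.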

How the data were processed

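Liver RNA was labelled with a 3' IVT kit and read on one-colour arrays, per the labels' protocols. The authors deposited 1 value per probe set on a log2 scale. Their software is not named in the labels. Each array had a lowest value of 0 and a 2% trimmed mean of the linear signal of 500.004, so the values were taken as already scaled. Of 45101 probe sets 64 controls were left out. Gene names came from the platform annotation (34945 probe sets with 1 symbol, 932 with several, 9160 unnamed here), and 34741 were matched to RefSeq names.

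A single limma fit (R 4.3.3, limma 3.58.1, group as the only factor, 6 residual degrees of freedom, two-sided) gave differences, standard errors and 95% intervals. The small number of arrays limits precision. Same-numbered arrays did not vary together (correlation of deviations from group means -0.034 to 0.036), so numbers were not used as pairs. All 32 genes were named. Those with an unadjusted p under 0.05 or with groups apart were given by array. Further probe sets of opposite sign past that p were named, as were, in the other pathway and insulin-responsive lists, the 2 genes of smallest p per comparison. The array values of Igf1r, Irs1, Irs2, Akt2, Mtor, Rptor, Ptpn1 and Trib3, the further probe sets of Insr, Cbl, Rictor and Sos1, the motifs, the probe set correlations and the values without single arrays of Irs2 with insulin, Trib3 and Pik3r2 with BI, Rptor, Sh2b2 and the dim Sos1 probe set were added after values were seen. The further probe sets of Pik3ca, Gsk3b and Grb2 were likewise added after values were seen. The genes, lists and tests were chosen with earlier results of these data known.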

Additional observations from a re-analysis of the deposited data

How the results depend on the processing

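Limma called 0 of the 32 genes in each comparison under 18 alternative fits (17 for the F test), with a smallest adjusted p of 0.766. The alternatives were quantile normalization, medians made equal, a filter on low values, a floor at 6, a variance trend with robust fitting, weighted arrays, averaged probe sets, the replicate block, only the groups compared, and each of the 9 arrays left out. The number with an unadjusted p under 0.05 ranged from 0 to 3 with insulin, 0 to 2 with BI, 0 to 1 between them and 0 to 2 by the F test.

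The median difference over the 32 genes was -0.046 with insulin when medians were made equal, where the median of all probe sets was -0.035 in place of 0.019. Between BI and insulin it was 0.0017 with averaged probe sets. Leaving out 1 array gave medians of -0.0082 to 0.052 with insulin, -0.030 to 0.032 with BI (0.032 without untreated replicate 3) and -0.089 to -0.016 between them (-0.016 without BI replicate 1). With averaged probe sets Rictor was at -0.028 with insulin and Cbl at 0.37 with BI, both turned in direction, and 12, 8 and 12 of 32 genes changed sign in the 3 comparisons. Leaving out 1 array gave -0.74 to 0.23 for Irs2 with insulin and 0.061 to 0.90 for Trib3 with BI. The cause was not tested. With the replicate block Akt1 was at -0.55 with insulin (limma unadjusted p 0.0527) and -0.52 with BI (0.0625), and the block changed no call. Of 9 arrays, 2 correlated best with an array of their own number. Without a background measure, dim probe sets cannot be told from noise here.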
